A study of Mus musculus with 12 samples.

Results

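The glucocorticoid budesonide was compared with no treatment in mouse embryonic stem cells. The comparison used 6 of the 12 libraries of the series, taken by their sample titles. They were 3 of untreated E14 cells, the control group, and 3 of E14 cells after 72 h with budesonide. The comparison itself was chosen with earlier results of these data known. The other 6 libraries, 3 of cells given L-proline for 72 h and 3 of cells given L-proline and budesonide together for 72 h, entered the fit, because all groups shared the estimate of the spread between libraries, and served to set the budesonide effect beside its counterpart in the presence of proline. All groups are 1 cell line, E14, a widely used mouse embryonic stem cell line, grown in 2 dimensions. The labels give no dose, no vehicle for the untreated cells and no medium, and nothing in them says that the 3 libraries of a group came from separate cultures, so the spread behind each p-value may be that of technical repeats. Of 53819 gene symbols in the table, 13852 passed a filter on low counts, and these are the genes described.

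Budesonide binds the glucocorticoid receptor, a nuclear receptor encoded by Nr3c1, which heat shock protein 90 and its partner proteins hold in the cytoplasm until the steroid arrives. The bound receptor moves to the nucleus, where it raises transcription of some genes and lowers that of others. Embryonic stem cells keep a network of naive pluripotency factors active and move towards a formative and then a primed state when they leave it. Those states differ in signalling through Nodal, LIF and FGF, in DNA methylation and in metabolism.

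Counts per library (M, mega) ran from 5.3 to 6.73 M in control and from 6.03 to 8.48 M with budesonide. Control 3 and budesonide 3 stood apart from the other libraries of the comparison. The share of tested genes without a count was 6.57% and 8.43% there, where the other 4 lay between 1.39% and 4.64%, and the 18S ribosomal RNA gene Rn18s took 6.70% of the counts of budesonide 3 against 2.21% to 4.11% in the other 5. Replicates correlated across genes, which are not independent, at 0.919 to 0.956 in control and 0.887 to 0.932 with budesonide (log2 of CPM, a gene's counts per 1 M counts of its library). Markers of the labelled cell type were present. The naive pluripotency list had all 24 members above 0 in both groups, with a summed level of 4861 to 5297 CPM in control and 5754 to 6437 CPM with budesonide. Of 18 feeder fibroblast genes, Lum, Postn and Fap were at 0 in all 6 libraries. The 10 that were tested summed to 185 to 249 CPM in control and 225 to 265 CPM with budesonide, with none called.

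A gene is said here to have risen or fallen where edgeR's quasi-likelihood F test gave an adjusted p below 0.05. Budesonide moved 902 genes, 6.51% of those tested: 348 rose (2.51%) and 554 fell (4%). An unadjusted p below 0.05 was reached by 2769 genes, those included. Most changes were small. The median rise was 1.85-fold and 131 of the 348 rises (37.6%) were over 2-fold, and the median fall was 1.58-fold, with 96 of 554 (17.3%) over 2-fold. The 3 libraries of one group all lay above the 3 of the other for 341 of the 348 rises and 544 of the 554 falls, where the share of all tested genes with such a separation was 23.7%. Without control 3 and budesonide 3 together the test called 579 genes, 459 of them in common with the 902 and in the same direction, and a fit of only the 6 libraries called 519, 510 of them in common.

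The fallen genes had a higher level and shorter transcripts than the risen genes. They had a median level of 145 CPM and a median transcript length of 886 nt, against 59.9 CPM and 1652 nt for the risen genes. Summed over each set, the mean level of the fallen genes fell by 83973 CPM and that of the risen genes rose by 17896 CPM.

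Many genes of the cytosolic ribosome fell. Of 86 tested ribosomal protein genes, which encode the proteins of the large and small ribosomal subunits, 51 fell (59.3%) and none rose, and the median log2 change was −0.47, where it was 0.01 over all tested genes. Together these genes took 12.4%, 12.4% and 12.6% of the counts of the control libraries and 9.90%, 10% and 9.36% with budesonide, so that the groups did not overlap and each varied little. The large subunit had 29 of 51 members lower and the small subunit 21 of 32, with medians of −0.48 and −0.47. All 51 that fell were among the 77 members over 100 CPM, and none of the 9 at lower levels was called, 2 of which had a log2 change above 0.

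Rps26, a small subunit protein, stood at 5088, 5446 and 6579 CPM in the control libraries and at 3800.2, 3441 and 2869 CPM with budesonide, a log2 change of −0.76 ± 0.11 (SE; adjusted p = 0.000137). Rpl4, a large subunit protein, stood at 3729.9, 3148 and 3058 CPM and at 1908, 1606 and 1761 CPM (log2 −0.91 ± 0.11, adjusted p = 2.77e-05). In both genes the highest budesonide library lay well under the lowest control library. Rps12 fell by 0.71 on the log2 scale, Rpl21 by 1.03, Rps7 by 0.92 and the acidic stalk protein Rplp2 by 0.68. Some members had estimates near 0: Rps6, Rps14, Rpl7, Rpl30 and the scaffold protein Rack1 had log2 changes of −0.07, −0.03, −0.06, −0.01 and 0.01, none of them called. Rps6 was among the 9 members at lower levels. Other members were not called although their change was near the list median, such as Rpl35a at −0.48 (adjusted p = 0.350) and Rpl35 at −0.38 (0.446). Ribosomal protein genes have many processed pseudogenes, and how the authors treated reads that match several places is not given in the sources used here, so the level of a single member is uncertain.

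The ribosomal protein list had 39 to 50 fallen members when 1 library was left out, 43 without control 3 and budesonide 3 together and 44 in a fit of only the 6 libraries. With offsets for transcript length and GC content 37 fell and the median was −0.36. These genes are short, with a median transcript length of 638 nt, and over all genes short transcripts had a lower median change than long ones, as given further below. In cells that also received proline, budesonide lowered 14 of the 86, with a median of −0.21, and 591 of all 13852 tested genes.

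The ribosomal protein genes share a known sequence feature at the transcription start, a run of pyrimidines behind a C called the terminal oligopyrimidine tract, through which growth signals control the translation of these messages. Windows of 40 bases around the annotated start were read from the RefSeq promoter table (build GRCm38.p6). They are shown to set the tract of members that fell beside that of members that were not called, with the tract in capitals, written 5′ to 3′ on the gene's own strand. The first 5 are members that fell, and the last 2, Rpl15 and Rps6, were not called.
Fau: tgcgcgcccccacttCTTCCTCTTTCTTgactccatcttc
Rpl38: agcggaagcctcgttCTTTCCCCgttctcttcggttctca
Rps18: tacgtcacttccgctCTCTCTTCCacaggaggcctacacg
Rplp2: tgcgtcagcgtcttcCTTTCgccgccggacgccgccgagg
Rpl28: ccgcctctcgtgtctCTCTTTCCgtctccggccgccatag
Rpl15: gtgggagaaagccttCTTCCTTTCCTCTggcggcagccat
Rps6: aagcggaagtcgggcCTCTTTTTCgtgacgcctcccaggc

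The windows of Fau, Rpl38, Rplp2 and Rpl28 lie at chr19:6057932-6057971, chr11:114668565-114668604, chr7:141447636-141447675 and chr7:4792950-4792989 on the plus strand, and those of Rps18, Rpl15 and Rps6 at chr17:33955641-33955680, chr14:18270962-18271001 and chr4:86857343-86857382 on the minus strand. A tract, taken as a C at the annotated start followed by at least 4 pyrimidines, was found in 16 of the 63 ribosomal protein genes with a promoter in the table (25.4%) and in 320 of 10057 tested genes (3.18%). Within the list it was present in 9 of 39 that fell (23.1%) and in 7 of 24 that were not called (29.2%). Those not called include members with changes near the list median, such as Rpl35a and Rpl35. They also include members of low level, such as Rps6, so the split does not set fallen against unchanged members. Among all genes that fell, 27 of 434 had it (6.22%), and 18 of 395 (4.56%) once the ribosomal proteins were left out. Annotated starts can lie a few bases from the true start, so a missing tract says only that these letters are not in this window.

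Members of other protein synthesis and energy metabolism lists fell alongside. Over all tested genes 4% fell, and 14.8% of those over 100 CPM outside the protein synthesis, energy, folding and breakdown lists. Of 73 mitochondrial ribosomal protein genes, whose products translate the messages of the mitochondrial genome, 20 fell (27.4%) and none rose, with a median of −0.34. Mrpl18 stood at 405, 393 and 458 CPM and at 278, 229 and 207 CPM (−0.82 ± 0.12), and Mrpl13 and Mrps16 changed by −0.90 ± 0.16 and −0.89 ± 0.17. The count was 12 without control 3 and budesonide 3 together, 11 in the fit of only the 6 libraries and 11 to 17 when 1 library was left out, with 11 without control 3 and 13 without control 2. In the presence of proline 20 fell as well, with a median of −0.35, where 591 of all 13852 tested genes fell.

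Of 81 nuclear genes of the respiratory chain and the ATP synthase 17 fell (21.0%) and none rose (median −0.28). The ATP synthase subunit Atp5h stood at 387, 304 and 284 CPM and at 189, 159 and 134 CPM (−1.01 ± 0.15, adjusted p = 0.000197), and Cox7b of the terminal oxidase and Ndufa5 of the first complex changed by −0.76 ± 0.12 and −0.76 ± 0.14. By complex, 9 of 37 genes of the first complex fell, 0 of 4 of the second, 2 of 9 of the third, 2 of 13 of the terminal oxidase and 4 of 17 of the ATP synthase. With length and GC offsets, and also in the fit of only the 6 libraries, 9 genes of the list fell. In the presence of proline 5 fell and 3 rose (median −0.10). Of the 7 messages that the mitochondrial genome itself encodes and that were tested, mt-Nd2 fell, from 5579, 4812 and 4467 CPM to 2872, 2996 and 3275 CPM (−0.70 ± 0.09). A second, mt-Nd4, was called at −0.28 ± 0.08, but its call ended under 10 of 15 alternatives (adjusted p of 0.0726 without budesonide 1, 0.126 without budesonide 2, 0.0758 without budesonide 3, 0.116 without control 2 and 0.236 without control 3, the highest over all alternatives). In the presence of proline none of the 7 fell and 6 rose (median 0.60), where 591 of all 13852 tested genes fell and 808 rose. The share of all counts on mitochondrial genes was 7.31% to 7.77% in control and 7.42% to 7.98% with budesonide.

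Factors that act on or beside the ribosome showed the same direction in smaller numbers. Of 39 translation initiation and elongation factors 8 fell (20.5%) and 1 rose (median −0.24). The elongation factor subunits Eef1d and Eef1b2 changed by −0.87 ± 0.12 and −0.41 ± 0.08, and the initiation factor subunit Eif3h by −0.50 ± 0.11. The member that rose, Eif3f, had a log2 change of 0.41 ± 0.11, and its call ended without control 2 (adjusted p = 0.0630), without budesonide 3 (0.0910), without control 3 and budesonide 3 together (0.138) and in the fit of only the 6 libraries (0.0731). The nucleolar proteins Npm1 and Ncl, which act in ribosome assembly, fell among the genes with the largest change in CPM. Npm1 stood at 3245, 2978 and 2913 CPM in control and at 1674, 1723 and 1570.1 CPM with budesonide (−0.88 ± 0.09), with low spread in both groups, and Ncl fell by 0.59. Of 21 aminoacyl-tRNA synthetases, which load amino acids onto tRNAs, 2 fell (9.52%), with Mars1 at −0.91 ± 0.16.

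Protein folding and breakdown genes were called lower in shares close to that of other genes over 100 CPM. The lists were counted over all tested members, whatever their level, so the sets compared are unlike. Of the genes over 100 CPM outside the protein synthesis, energy, folding and breakdown lists 14.8% fell. Of 47 proteasome genes, which form the protease that degrades tagged proteins, 8 fell (17%) and none rose (median −0.22): 3 of 18 of the core and 5 of 20 of the regulatory particle. Psma4 of the core stood at 247, 212 and 184 CPM and at 127, 109 and 84.6 CPM (−1.01 ± 0.16), and Psmb10 changed by −0.95 ± 0.16 and Psmc6 by −0.59 ± 0.12. The count was 5 without control 3 and budesonide 3 together and 4 in the fit of only the 6 libraries, and 4 to 8 when 1 library was left out, with 4 without budesonide 3 and 5 without control 3. Of 35 chaperones and heat shock proteins 6 fell (17.1%, median −0.13, 3 with length and GC offsets), among them the mitochondrial chaperone Hspd1 at −0.60 ± 0.11 and the cytosolic Hspa4 at −0.59 ± 0.09.

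**Figure D1:**
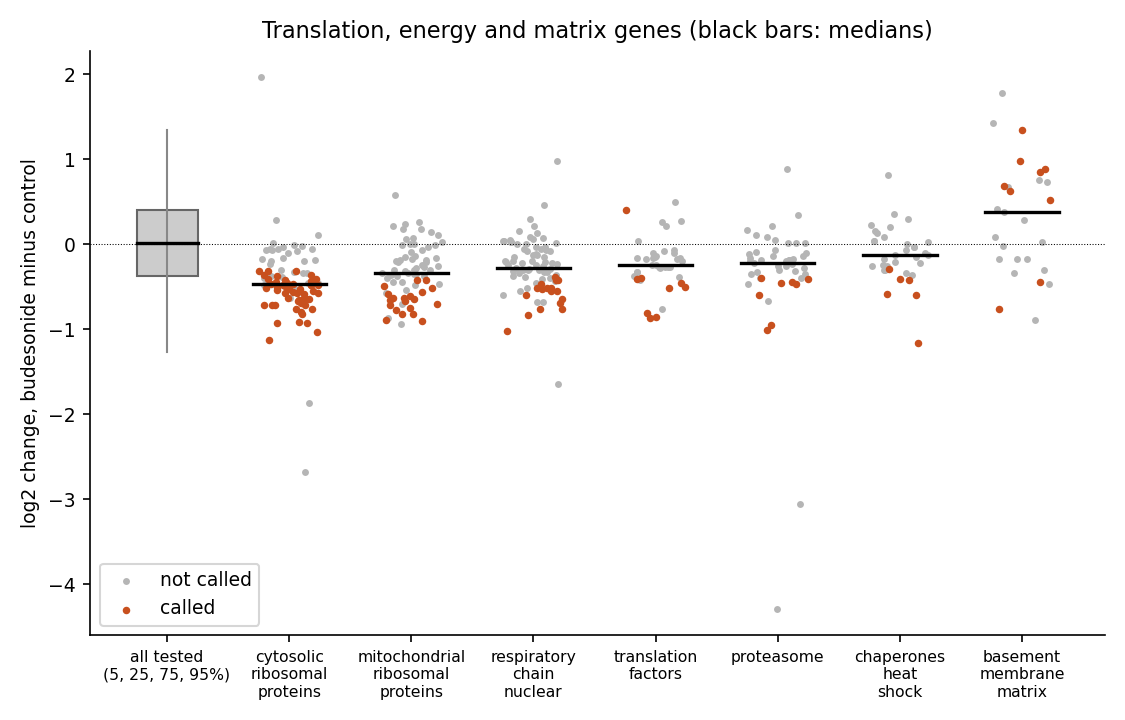
Log2 change with budesonide (y axis, budesonide minus control) of the tested genes of 7 lists, 1 point per gene, orange where called and grey where not, with the list median as a black bar; the box shows the spread over all 13852 tested genes. The ribosomal protein points gather near their median of −0.47, the mitochondrial ribosome and respiratory chain lists have medians of −0.34 and −0.28, and the basement membrane list has its median at 0.38.

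The falls went with transcript length and with level, and these were measured for all genes. Of 5173 genes with a transcript length (the median over a gene's annotated transcripts) of up to 1000 nt, 5.99% fell and 2.05% rose, while of 862 genes between 4000 and 8000 nt 1.16% fell and 4.06% rose. The median log2 change went from −0.07 in the first of these classes to 0.17 in the second, and to 0.00 and −0.03 with length and GC offsets. By level, 36.6% of the 268 genes over 500 CPM fell and 3.73% rose, and of the 4262 genes between 20 and 100 CPM 3.68% fell and 4.36% rose, with a higher level also giving the test more counts. Short genes in the protein synthesis, energy, folding and breakdown lists fell in 88 of 265 cases (33.2%). Short genes outside those lists fell in 222 of 4908 cases (4.52%), or in 132 of 776 (17%) for those over 100 CPM. Across genes, the correlation of length with a library's deviation from the mean was −0.0768 to −0.0452 in control and 0.0374 to 0.0729 with budesonide, so that the libraries of the groups did not overlap in this measure. Its part in the falls of the lists was not tested beyond the offsets given above.

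**Figure D2:**
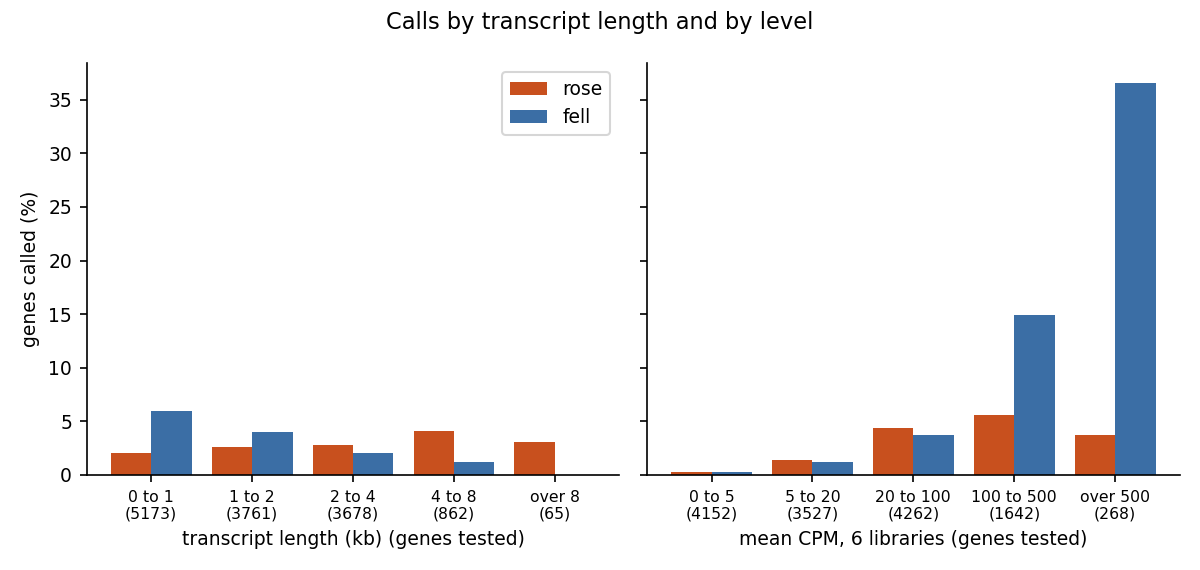
Share of tested genes that rose (orange) or fell (blue) with budesonide, in percent (y axis), by transcript length in kilobases (left) and by mean CPM over the 6 libraries (right), with the number of genes in each class in brackets. Falls go from 5.99% in the shortest class to 0.00% in the longest, and from 0.289% at the lowest levels to 36.6% at the highest.

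A test against a 1.5-fold change asked which genes moved by more than that size. It passed 24 genes (0.173% of those tested): 17 were higher and 7 lower. All 24 had libraries that did not overlap between the groups, and all were called in each of the 15 alternatives by the test with no fold threshold, although the count past the 1.5-fold test was 13 without control 2, 11 without budesonide 3, 9 without control 3 and budesonide 3 together and 7 in the fit of only the 6 libraries. They include 3 predicted genes named Gm and 2 mitochondrial tRNA genes.

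The largest of the rises was Bach1, a haem-responsive repressor of haem oxygenase and other antioxidant genes. It stood at 9.0, 2.31 and 4.47 CPM in control and at 25.6, 25.6 and 38.7 CPM with budesonide, a log2 change of 2.49 ± 0.38 (adjusted p = 0.000307). The lowest budesonide library was well above the highest control library, which itself exceeded the others of its group. Camk2n1, an inhibitor of calmodulin-dependent kinase II, stood at 1.96, 5.20 and 2.78 CPM and at 20.5, 13 and 16.7 CPM (2.35 ± 0.44). H19, an imprinted long noncoding RNA, stood at 15.5, 20.8 and 11.9 CPM and at 60.9, 67.7 and 47.7 CPM (1.87 ± 0.25, adjusted p = 6.26e-05). Of the other 35 tested imprinted genes 2 rose, the maternally expressed noncoding RNAs Meg3 at 0.78 ± 0.12 and Mirg at 0.87 ± 0.13, which belong to 1 cluster, and 3 fell, with Cdkn1c given below and Grb10, an adaptor that restrains insulin signalling, at −0.65 ± 0.15. With H19 the share of the imprinted list called was 16.7%, where it was 6.51% over all tested genes.

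Of the other rises, Uap1l1, related to the enzyme that makes UDP-N-acetylglucosamine, stood at 6.05, 13.5 and 8.64 CPM and at 38.3, 30.8 and 42.1 CPM (1.99 ± 0.30). Renbp, which interconverts N-acetylglucosamine and N-acetylmannosamine, stood at 26.8, 25.1 and 28.1 CPM and at 67.7, 84.0 and 87.4 CPM (1.58 ± 0.18), with a narrow control group. Etnk1, the ethanolamine kinase of phosphatidylethanolamine synthesis, went from a mean of 45.3 ± 5.80 to 128 ± 14.3 CPM (SD, n = 3; log2 1.5 ± 0.18). The kinase Pdpk1, which activates Akt and the glucocorticoid-induced kinase family, changed by 1.36 ± 0.19. Ckb, the brain-type creatine kinase, rose by 1.08 and the mitochondrial pyrimidine nucleotide carrier Slc25a36 by 1.09.

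Lgals3, the sugar-binding protein galectin 3, stood at 110.1, 133 and 122 CPM and at 268, 282 and 327 CPM (1.26 ± 0.13, adjusted p = 7.16e-06). The Nodal inhibitors Lefty1 and Lefty2 stood at 91.1, 96.8 and 86.7 CPM and 45.8, 46.1 and 34.4 CPM in control. With budesonide they stood at 190.5, 229.7 and 181 CPM and 83.3, 103 and 123 CPM, so that each gene's budesonide libraries all lay above its control libraries. The mitochondrial tRNA genes mt-Tq and mt-Tp rose by 1.33 and 1.17. They lie on the opposite strand from most mitochondrial genes, and the strand setting of the counting is not given, so their reads cannot be told apart from those of genes they face. The predicted genes Gm26789 and Gm37258 rose by 1.87 and 1.78.

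Among the 7 falls past 1.5-fold were regulators of the cell cycle. Ccnd1, cyclin D1, which with its kinases drives entry into S phase, stood at 78.5, 87.5 and 71.7 CPM in control and at 37.0, 25.1 and 22.3 CPM with budesonide (−1.49 ± 0.19, adjusted p = 5.18e-05). Cdkn1c, an imprinted inhibitor of cyclin-dependent kinases that glucocorticoids are known to induce in other cells, stood at 193, 199 and 225 CPM and at 85.6, 70.2 and 49.8 CPM (−1.59 ± 0.17). Both a driver and an inhibitor of the cycle were lower in every budesonide library. In the list of 28 G1 cyclins, kinases and replication licensing genes 2 rose and 3 fell (6.51% of all tested genes were called). None rose without control 1, without budesonide 3 or in the fit of only the 6 libraries, and 1 rose without each of the other 4 libraries.

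Tcf15, a transcription factor of epiblast cells that prepare to leave the naive state, stood at 129, 121 and 112 CPM and at 54.2, 43.2 and 45.4 CPM (−1.34 ± 0.15). Spink1, a trypsin inhibitor, stood at 180.2, 183 and 217 CPM and at 45.2, 69.1 and 93.5 CPM (−1.48 ± 0.19), with a wide spread among the budesonide libraries. The ciliary dynein chain Dync2i2 changed by −1.99 ± 0.33 and Pdap1, which binds platelet-derived growth factor, by −1.17 ± 0.12. The largest change of all 24 was that of the predicted gene Gm10800. It stood at 365, 285 and 297 CPM in control and at 55.7, 38.4 and 29.9 CPM with budesonide (−2.93 ± 0.25, adjusted p = 3.99e-07), and its means with proline and with both compounds were 21.7 and 30.3 CPM, so that control was high and the other 3 groups were low.

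**Figure D3:**
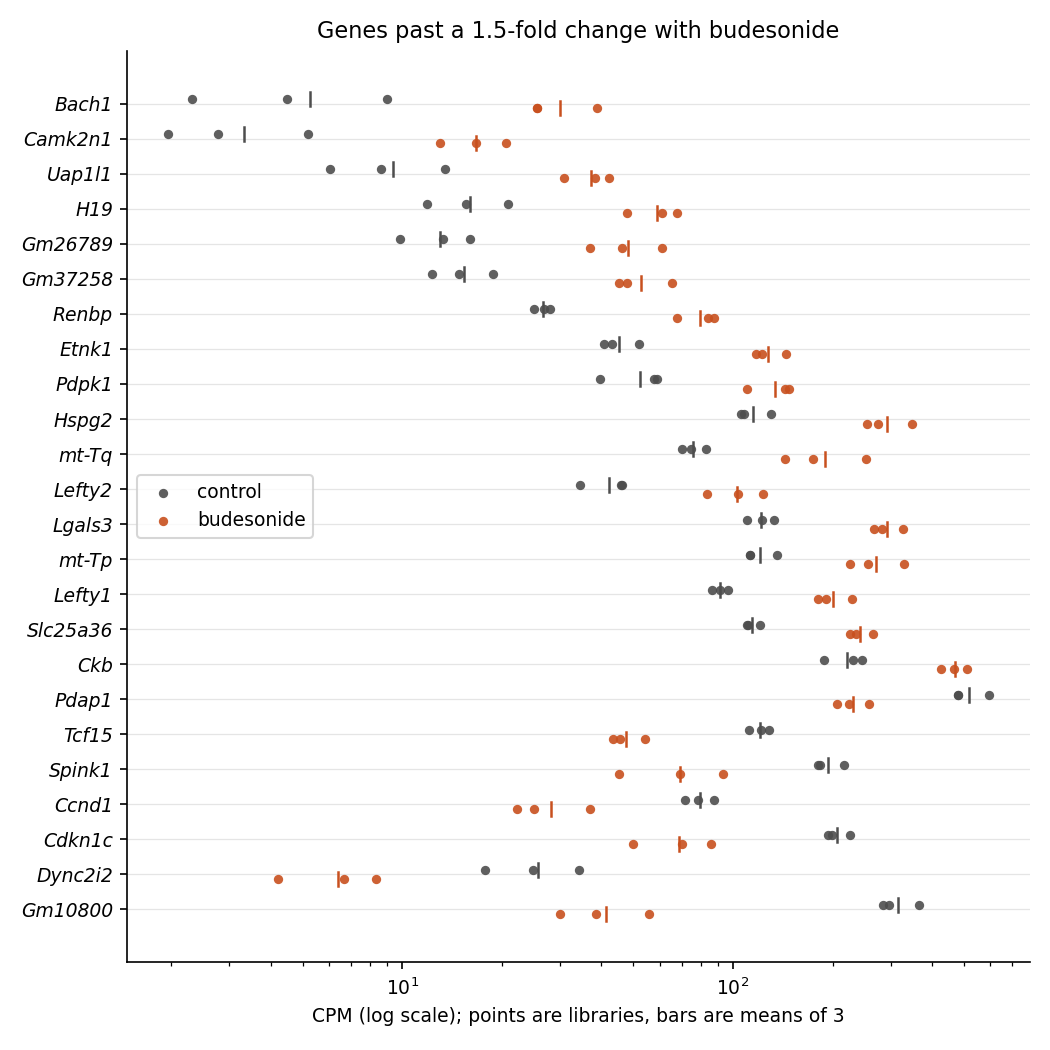
CPM on a log axis of the 24 genes past a 1.5-fold change, with 1 point per library, control in grey and budesonide in orange, and a bar at the mean of 3 libraries. In every row the points of the groups are apart; Bach1, at the top, has control points from 2.31 to 9.0 CPM and budesonide points from 25.6 to 38.7 CPM.

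Outside these 24, the largest rises on the log2 scale included Cfp (properdin, of the complement system) at 2.14 ± 0.46, the transcription factor Sox21 at 1.75 ± 0.34, Dlgap3 at 1.71 ± 0.33 and Islr2 at 1.68 ± 0.33. Ikzf2, a zinc finger transcription factor, had 0 counts in the control libraries and 121 with budesonide, at least 33.2-fold higher against a floor of 3 counts over the control group. The largest falls included genes with few counts. Sfrp4 changed by −3.31 ± 0.82, with 187 counts in control and 24 with budesonide. Its call ended with limma-voom (adjusted p = 0.0506) and without control 2 (0.0865). Car4 changed by −2.35 ± 0.53, with 78 and 19 counts. Its call ended with limma-voom (adjusted p = 0.185), without control 1 (0.0596) and in the fit of only the 6 libraries (0.258). The fall of Sp5 is given below. Smaller falls that kept their call under all 15 alternatives included En1 (a homeobox gene), Ntan1 and Lrrc47, each at −1.72 ± 0.37. Pla2g7, a phospholipase of platelet-activating factor, at −1.63 ± 0.32 and Mael, which acts in silencing transposons, at −1.55 ± 0.29 did so too. In CPM, Klf2, Apoe (an apolipoprotein), Meg3, Fn1 (fibronectin), the glucose transporter Slc2a3 and Igfbp2, which binds insulin-like growth factors, were among the rises of largest size. Igfbp2 stood at 248, 301 and 233 CPM and at 475, 452 and 547 CPM.

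Classic glucocorticoid targets did not move one way. Nr3c1, the receptor gene, stood at 9.98, 13.3 and 9.87 CPM in control and at 19.2, 14.4 and 20.8 CPM with budesonide, and although the groups did not overlap the gene was not called (0.72 ± 0.31, adjusted p = 0.187). Of 31 induced genes that have counts listed, 26 were tested, of which 3 rose, 3 fell and 20 were not called (median −0.16). The share called was 23.1%, where it was 6.51% over all tested genes. The lists were chosen with earlier results of these data known, and over all 50 lists 215 of 1141 distinct tested members were called. Without control 3 and budesonide 3 together the median of the induced genes was 0.08, with 2 rises and 3 falls. There was 1 rise in the fit of only the 6 libraries, and 2 when 1 library was left out. With length and GC offsets 2 rose and 2 fell. Nfkbia, the inhibitor of NF-kappa-B, rose from 126, 120.5 and 116 CPM to 245, 198 and 199 CPM (0.83 ± 0.13). Klf9, a transcription factor, was called at 0.36 ± 0.09, a call that ended without control 1 (adjusted p = 0.0639), budesonide 1 (0.0539) or budesonide 2 (0.0637), with length and GC offsets (0.0632) and in the fit of only the 6 libraries (0.0691). Besides Cdkn1c, the metallothionein Mt2 fell by 0.59. The third fall was glutamine synthetase, Glul, at −0.50 ± 0.11 (adjusted p = 0.0880 with length and GC offsets). Widely used reporters of the receptor, Fkbp5, Per1 and Sgk1, had log2 changes of −0.21 ± 0.16, −0.11 ± 0.27 and 0.09 ± 0.13, none called, and Tsc22d3 had 9 counts in control and 33 with budesonide over the group, a ratio of 3.02 (95% interval 1.41 to 7.17, counting error only). Zbtb16 did not pass the filter.

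Receptor binding motifs in promoters were counted as a description. Of 260 risen genes with a promoter in the RefSeq table, 16.5% held the half-site AGAACA on either strand within 250 bases before to 50 bases after the annotated start, against 13.4% of 434 fallen genes and 14.4% of all 10057. The full palindrome GNACANNNTGTNC, which contains positions of the half-site, was in 34 of the 10057 (0.338%) and in none of the risen or fallen genes. The receptor is known to bind mostly outside promoters, in distal enhancers, which these windows do not cover.

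Pluripotency genes moved in both directions. Of 24 naive genes 5 rose and 1 fell, with a median of 0.08 and 18 not called. Klf2 stood at 412, 481 and 455 CPM in control and at 755, 912 and 923 CPM with budesonide (0.94 ± 0.11, adjusted p = 2.04e-05), and Tbx3 and the adhesion receptor Pecam1 changed by 0.78 ± 0.13 and 1.15 ± 0.23. The central factors Nanog, Esrrb and Klf4 had log2 changes of 0.32 ± 0.14, −0.03 ± 0.14 and −0.17 ± 0.15, none called. Nanog stood at 260.0, 214 and 178 CPM and at 268, 238 and 308 CPM, groups that overlapped. Without control 3 and budesonide 3 together 5 naive genes rose and 3 fell, and without control 2 there were 3 rises.

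Of 19 general pluripotency genes 1 rose and 4 fell (26.3% called, where 6.51% of all tested genes were). Tdgf1, the Nodal co-receptor Cripto, stood at 975, 834 and 689 CPM and at 479.9, 425 and 405 CPM (−0.93 ± 0.13, adjusted p = 0.000123), and Sall1 rose by 0.86. Sox2 and Pou5f1 had log2 changes of −0.03 ± 0.11 and −0.14 ± 0.25, not called, and Pou5f1 has pseudogene copies that could share its reads. Utf1 at −0.55 ± 0.12 and Rest at −0.43 ± 0.10 were not called without control 3 and budesonide 3 together (adjusted p = 0.0731 and 0.0834).

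Of 24 formative and primed genes 6 fell and 1 rose (median −0.15, 4 fallen without control 3 and budesonide 3 together). The share called was 29.2%, and 6.51% over all tested genes. Pim2, a kinase gene, stood at 39.8, 44.5 and 54.0 CPM and at 25.9, 22.8 and 28.1 CPM (−0.85 ± 0.15; adjusted p = 0.0571 in the fit of only the 6 libraries). The DNA methyltransferase Dnmt3b changed by −0.49 ± 0.11 (adjusted p = 0.0534 without budesonide 3, 0.0761 without control 3 and budesonide 3 together and 0.0525 in the fit of only the 6 libraries). Trh, the thyrotropin-releasing hormone gene, was the member that rose, by 0.63. Pou3f1, a factor of the primed state, was at −0.12 and not called. In that 6-library fit none of the list fell, and 3 fell without control 1 or without budesonide 3, and 4 without control 2 or without budesonide 2.

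Signalling genes of the stem cell state held calls in both directions, with 1 to 4 called members in each list. The share called was 23.5% in the Wnt list, 21.1% in the Nodal and activin list, 18.8% in the LIF and Stat3 list, 12.5% in the BMP list, 8.70% in the FGF list and 7.69% in the hedgehog list, where it was 6.51% over all tested genes. Lists were chosen with earlier results of these data known, and over all 50 lists 215 of 1141 distinct tested members were called. In the Nodal and activin list of 19 genes both Lefty genes rose, and Tdgf1 and Gdf3 fell; the Gdf3 call (−0.49 ± 0.13) ended without control 2 (adjusted p = 0.0983), budesonide 2 (0.0932) and in the fit of only the 6 libraries (0.0714). Of 16 LIF and Stat3 genes 2 rose (1 without control 1, control 3 or budesonide 2) and 1 fell, and Socs2, a feedback inhibitor of cytokine receptors, stood at 131, 155 and 141 CPM and at 243, 280.2 and 313 CPM (0.97 ± 0.12). Of 17 Wnt genes 2 rose (1 without control 1, control 3, budesonide 2 or budesonide 3) and 2 fell: Sfrp1, a secreted Wnt inhibitor, rose by 1.10, and Ccnd1, a target, fell as given above. Sp5, a direct Wnt target, had 85 counts in control and 9 with budesonide, a ratio of 11.5 (95% interval 5.77 to 25.9, counting error only), but its call ended with limma-voom (adjusted p = 0.0769) and in the fit of only the 6 libraries (0.0797). The BMP list of 16 had 2 falls, the FGF list of 23 had 2 rises, and the hedgehog list of 13 had 1 rise. These last counts changed when 1 library was left out. The BMP falls were 0 or 1 without any one library and 0 in the fit of only the 6 libraries. The FGF rises were 0 without control 3, 1 without budesonide 2 or budesonide 3 and 0 without control 3 and budesonide 3 together. The hedgehog count was 1 without control 2 or without budesonide 2 and 0 without each of the other 4 libraries.

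Basement membrane and matrix genes, which build the sheet that cells attach to, gave 7 rises (25.9%) and 2 falls among 27 tested, with a median log2 change of 0.38. Over all tested genes 2.51% rose and 4% fell. Hspg2, the proteoglycan perlecan, stood at 108, 130.3 and 106 CPM in control and at 255, 274 and 348 CPM with budesonide (1.35 ± 0.17, adjusted p = 2.77e-05). Fibronectin, Fn1, stood at 425, 353 and 423 CPM and at 667, 645 and 629.8 CPM (0.69 ± 0.11), and the laminin chain Lama5 changed by 0.89 ± 0.15. Both genes kept a clear gap between the groups. The laminin chain Lamb1 moved the other way, from 193, 191 and 224 CPM to 133, 120.4 and 106 CPM (−0.76 ± 0.13), so that chains of the same trimeric protein family differed in direction. These are long transcripts, and with length and GC offsets 5 rose and 3 fell (3 and 1 in the fit of only the 6 libraries and without budesonide 1, and 4 and 1 without control 3).

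Cytoskeletal genes were split. Of the 31 tested genes of the actin cytoskeleton list 3 rose and 3 fell, with 2 and 2 without control 1. The share called was 19.4%, and 6.51% over all tested genes. The actin crosslinkers Actn1 and Flna rose by 0.68 and 0.66, while Actn4 fell by 0.61 and cofilin, Cfl1, which severs actin filaments, stood at 837, 729 and 805 CPM and at 386, 459 and 365 CPM (−0.97 ± 0.13). Anxa2, a calcium-dependent membrane-binding protein, rose from 11.8, 13.1 and 13.3 CPM to 30.9, 33.2 and 33.5 CPM. The epithelial cadherin gene Cdh1 stood at 591, 725 and 693 CPM and at 719, 708 and 504 CPM (−0.06 ± 0.15, adjusted p = 0.896), with budesonide 3 below the other 5. Of 36 adherens and tight junction genes 2 rose and none fell (5.56% called, where 6.51% of all tested genes were). There were 3 rises without control 1, none without control 2, 1 rise and 2 falls without budesonide 2, and no rise and 1 fall without control 3 and budesonide 3 together. Of 15 mesenchymal transition genes Fn1 alone was called (6.67%).

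Of the metabolic lists, the glycolysis and hypoxia list of 28 had 3 rises and 2 falls (1 and 1 without control 2): Slc2a3 stood at 394, 385 and 469.6 CPM and at 625, 729 and 624 CPM (0.66 ± 0.12), while lactate dehydrogenase, Ldha, fell by 0.52. Of 26 cholesterol genes 2 rose, and of 16 fatty acid synthesis genes 2 rose, with fatty acid synthase, Fasn, at 0.59 ± 0.13. Each of these counts was 1 without control 2, without budesonide 1 or without budesonide 3, and the cholesterol count was 1 without control 3 and the fatty acid count 1 without control 1. Slc3a2, the heavy chain of amino acid exchangers, rose by 0.74 in the Atf4 list, where 2 of 30 rose and 1 fell (none fell without control 3). Among 14 genes of proline metabolism and transport 3 rose and none fell, without control 3 and budesonide 3 together 2, and with length and GC offsets 1. The count was 1 or 2 without any one library. Of the 22 haem and antioxidant genes, among them targets that Bach1 represses, 2 rose, Bach1 itself and the quinone reductase Nqo1 at 1.15 ± 0.24 (adjusted p = 0.0617 without control 3 and budesonide 3 together).

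Markers of other cell types were called in both directions, and their summed levels are given over the tested members. Of 18 trophoblast markers 2 rose (11.1%, where 6.51% of all tested genes were called and 2.51% rose). The median was 0.66, and 15 had a log2 change above 0, as did 7067 of all 13852 tested genes. In 8 all budesonide libraries lay above all control libraries, a separation that 1588 of all tested genes showed. Their summed level was 200.3 to 250.1 CPM in control and 296 to 361 CPM with budesonide. One of those called was the keratin Krt18, which stood at 12.9, 13.9 and 9.87 CPM and at 37.7, 29.1 and 34.6 CPM (1.47 ± 0.32). The count was 1 without control 1 or without control 2, and Psg17 was at 0 in all 6 libraries.

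Of 15 endoderm markers 3 rose (20%) and 1 fell, with a median of 0.61, where 2.51% of all tested genes rose and 4% fell. The markers summed to 1066 to 1346 CPM and 1408 to 1564 CPM, of which Apoe made up the larger part. One rose without budesonide 1 and in the fit of only the 6 libraries, and 2 without control 1, control 2, control 3 or budesonide 3, and none fell without control 3, budesonide 1 or budesonide 2. Ttr, which did not pass the filter, was at 0 in all 6 libraries. Gata4, Gata6 and Foxa2 were not called, while the transcription factor Sox17 rose, with 1 count in control and 68 with budesonide. The Sox17 call (adjusted p = 0.0383) ended under 9 of the 14 alternatives that tested it. Of 10 primitive streak markers 2 fell (20%), with sums of 96.7 to 103.7 CPM and 63.1 to 75 CPM, but 1 fell without any one library other than budesonide 1 and none in the fit of only the 6 libraries. Of 13 neuroectoderm markers 1 rose and 2 fell (23.1% called), with sums of 268 to 298 CPM and 265 to 284 CPM that overlapped, and 1 fell without any one library other than budesonide 1, where 3 fell. The 8 tested 2-cell markers summed to 19.6 to 22.9 CPM and 8.35 to 13.7 CPM, with none called. The part of such cells in the changes of other lists was not tested. In bulk libraries fewer cells of a type and less RNA per cell cannot be told apart.

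**Figure D4:**
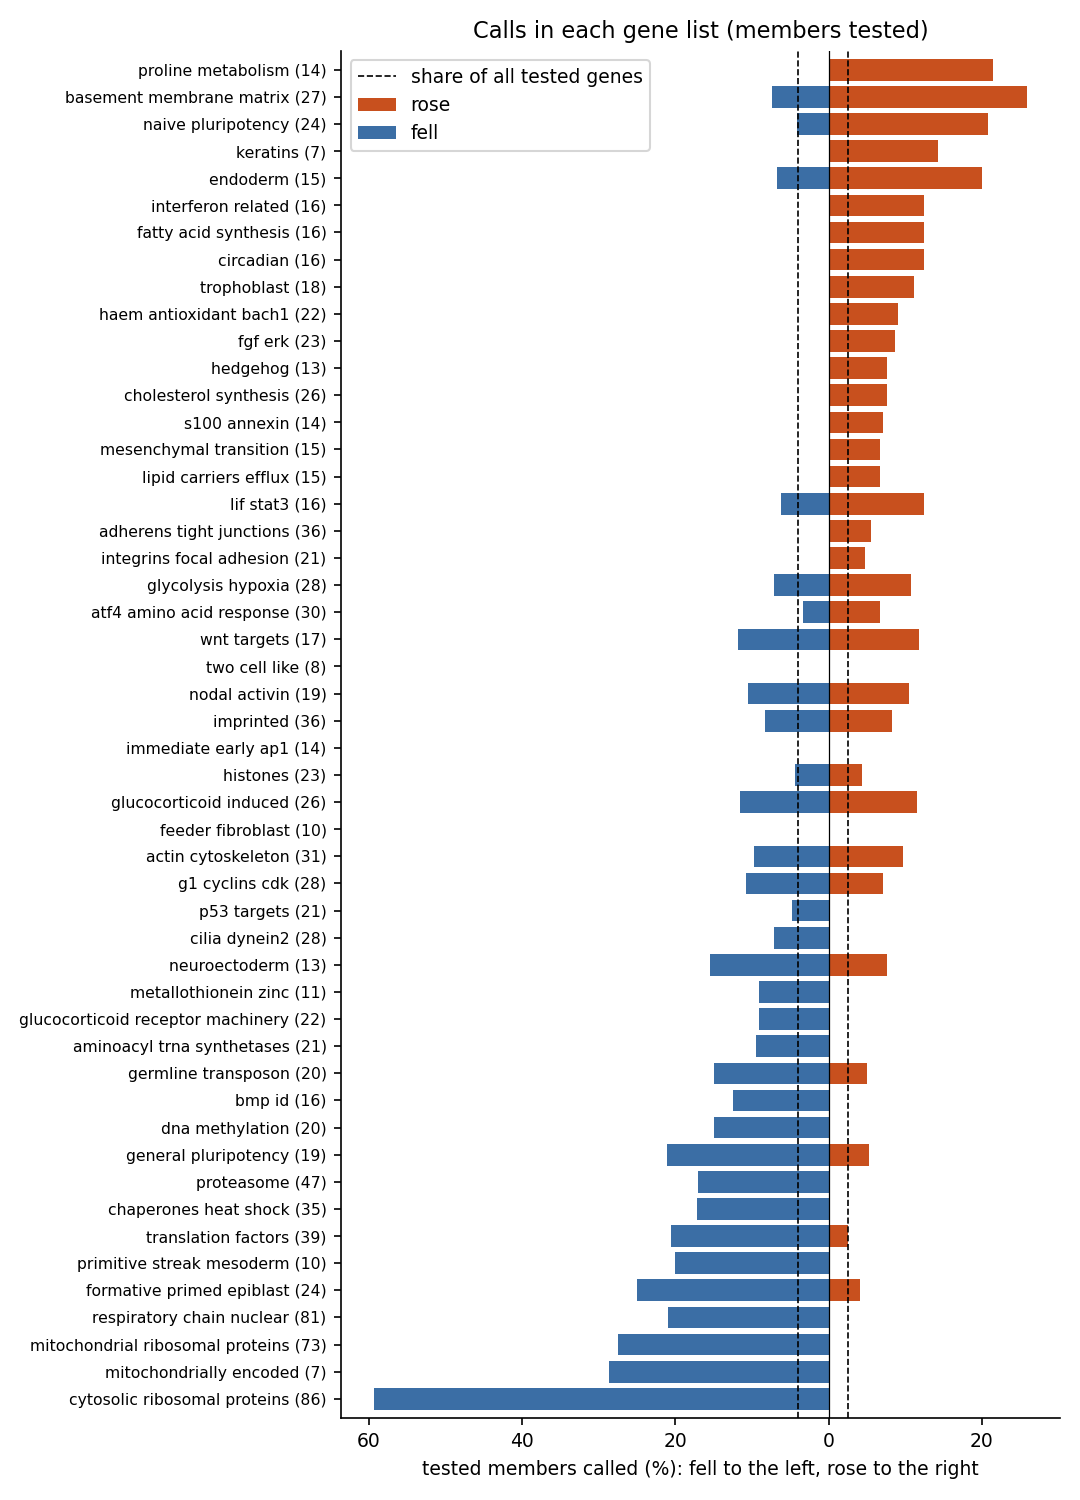
Share of each list's tested members that fell (blue, to the left) or rose (orange, to the right) with budesonide, in percent, with the number tested in brackets; dashed lines give the shares over all tested genes, 4% and 2.51%. The ribosomal protein list extends farthest to the left at 59.3%, the basement membrane list farthest to the right at 25.9%, and 3 lists have no call.

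The same compound was also given to cells with proline, and those libraries share none with the comparison above. There, both compounds against proline alone, 1399 of 13852 genes were called (10.1%), 808 higher and 591 lower. The share of all tested genes with the same direction in both comparisons was not counted. Of the 348 genes that rose without proline 329 (94.5%) had a change in the same direction with it and 194 (55.7%) were called higher there, and of the 554 that fell 518 (93.5%) and 233 (42.1%). Called in opposite directions were 1 of the rises and 3 of the falls. Of the 24 genes past 1.5-fold, 21 were called the same way with proline, and Bach1, Lefty2 and Gm10800 were not.

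The difference between the effects was tested as an interaction and passed in 65 genes (0.469%). Lgals3 rose by 1.26 without proline and by 2.63 with it (adjusted p of the difference 0.000375), and Klf2 by 0.94 and 1.72 (0.0143). Tbx3 rose by 0.78 and 2.75 (3.82e-06). Esrrb, Klf4 and Nanog, not called without proline, changed by 1.52 ± 0.14, 1.22 ± 0.15 and 1.33 ± 0.15 with it, and the difference passed in each (adjusted p 0.000162, 0.00129 and 0.0173). Of the naive list 17 of 24 rose with proline present and none fell, against 5 and 1 without. Of all 13852 tested genes 808 rose and 591 fell with proline present. Irf1, an interferon-regulated transcription factor, went the other way: it rose from 30.6, 45.5 and 39.6 CPM to 72.0, 73.6 and 79.9 CPM without proline (0.96 ± 0.18) and changed by −0.40 ± 0.18 with it. Gm10800 changed by −2.93 ± 0.25 and 0.45 ± 0.24.

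**Figure D5:**
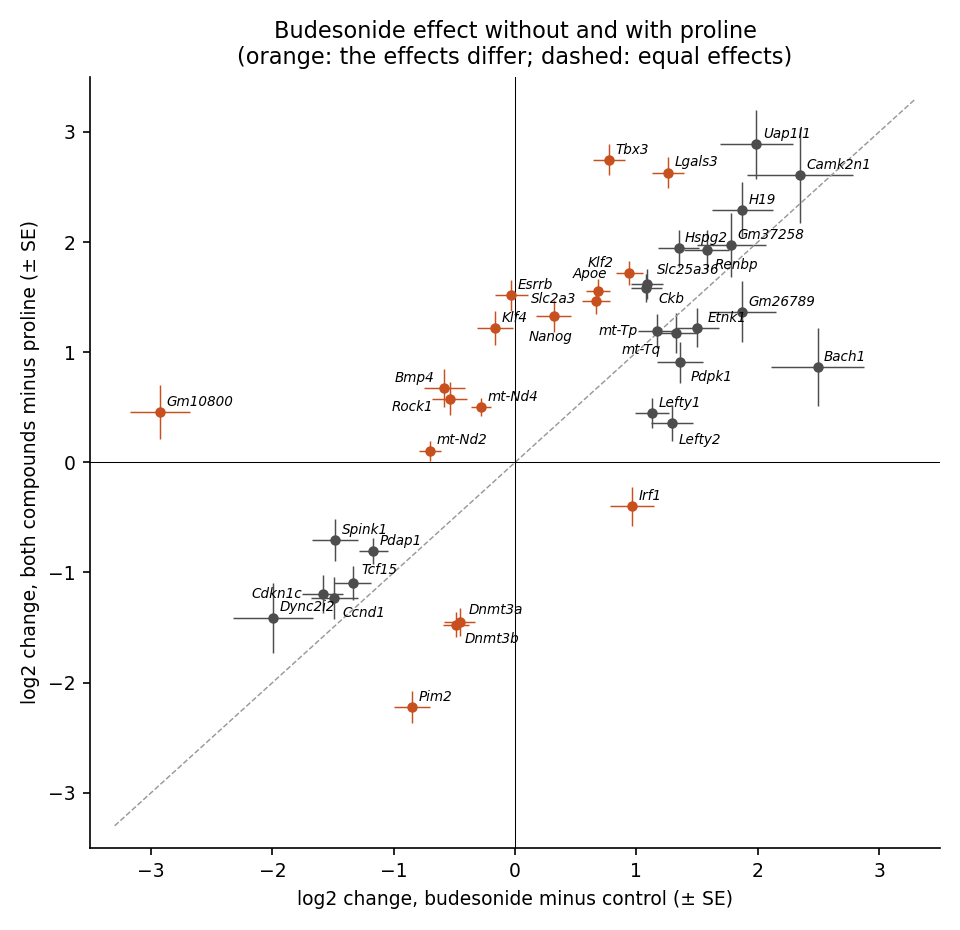
Log2 change with budesonide without proline (x axis) and with proline (y axis), both with bars of 1 SE, for the 24 genes past a 1.5-fold change and the named genes whose effects differed (orange); the dashed line marks equal effects. Most of the grey genes lie near the line, Tbx3 and Lgals3 lie above it, Esrrb, Klf4 and Nanog lie high with little change on the x axis, and Gm10800 lies alone at −2.93 and 0.45.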

How the data were processed

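The 12 libraries were made from polyadenylated RNA with the QuantSeq kit, which reads transcripts near the 3′ end, per the labels' protocols. The authors deposited whole-number counts per gene symbol, which were used, and a normalized table, which was not. STAR 2.7.5c, featureCounts 2.0, cutadapt 2.5 and the build GRCm39 appear in the submitters' processing notes, and no annotation or strand setting is given there.

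The test was edgeR 4.0.16 in R 4.3.3: filterByExpr (minimum count 10, minimum total 15), TMM, glmQLFit over 4 groups (8 residual degrees of freedom), two-sided glmQLFTest, and glmTreat against 1.5-fold. P-values were adjusted by Benjamini-Hochberg over 13852 genes. Log2 changes used a prior count of 0.125, with SE as the absolute change over the square root of F. CPM values are TMM-scaled. Precision rests on 5.3 to 8.48 M (mega) counts per library, and intervals on pooled counts cover counting error only. Replicates differed by more than counting error (chi-square per degree of freedom 5.63 or higher). This value cannot tell separate cultures from separate libraries of 1 culture.

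Alternatives were DESeq2 1.42.0 and its size factors, limma-voom (limma 3.58.1), no filter and a minimum count of 50, the 6 libraries alone, a replicate block, leaving out libraries, and offsets for transcript length and GC content, which 97.7% of tested genes had from GENCODE transcripts of build GRCm38. The steps were tested on simulated data. The comparison, the 50 lists and the naming rule were chosen with earlier results of these data known. Named were genes past the 1.5-fold test. Named also were the 12 largest rises and falls on the log2 scale and the 10 in CPM among called genes of at least 5 CPM whose groups did not overlap and that stayed called without control 3 and budesonide 3, leaving out predicted, Rik and mitochondrial symbols. Each list added up to 5 called members each way by p, and some check genes were named whatever their change. Other list members, such as Rps6, were named after their values were seen.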

Additional observations from a re-analysis of the deposited data

Results flagged for a closer look

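Among the named genes, 17 differed in their budesonide effect between cells without and with proline, by the test of the difference itself (effect with proline minus effect without, log2 ± SE). A positive difference was found for the naive pluripotency genes Tbx3 at 1.97 ± 0.19, Esrrb at 1.55 ± 0.19, Klf4 at 1.39 ± 0.21, Nanog at 1.01 ± 0.20 and Klf2 at 0.78 ± 0.15. Of these, Klf2 and Tbx3 were also called without proline. The same sign was found for Lgals3 at 1.37 ± 0.19, Apoe at 0.88 ± 0.14 and the glucose transporter Slc2a3 at 0.80 ± 0.16, which rose in both settings and more with proline.

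Bmp4, a growth factor of the TGF-beta family, and the kinase gene Rock1 differed by 1.25 ± 0.24 and 1.12 ± 0.21, with changes of −0.58 and −0.54 without proline and 0.67 and 0.58 with it. Their calls without proline were among those that ended under alternatives (10 and 5 of 15). The mitochondrial messages mt-Nd2 and mt-Nd4 differed by 0.81 ± 0.13 and 0.79 ± 0.12. The predicted gene Gm10800 differed by 3.38 ± 0.34, the largest of these values.

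A negative difference was found for the formative genes Pim2 at −1.37 ± 0.20, Dnmt3a at −1.0 ± 0.18 and Dnmt3b at −0.99 ± 0.16, which were lower in both settings and more so with proline, and for Irf1 at −1.36 ± 0.25. Without proline the call of Dnmt3a (adjusted p = 0.0320) ended under 10 of 15 alternatives, that of Dnmt3b under 3 and that of Pim2 under 1. These 17 are the named genes among the 65 of all 13852 tested genes that passed.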

How the results depend on the processing

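The 902 calls became 519 (200 rose, 319 fell) in a fit of only the 6 libraries and 579 (208 rose) without control 3 and budesonide 3 together, both of which use fewer libraries. Leaving out 1 library gave 629 to 792 calls. The count past a 1.5-fold change was 24 in the main analysis, 56 with no filter on low counts, 7 in the fit of only the 6 libraries, 9 without control 3 and budesonide 3 together, and 11 to 22 when 1 library was left out. The count of genes whose effect differed with proline was 65, and 134 with no filter and 145 with DESeq2, where the cause was not tested. DESeq2 called 1267 genes, of which 896 were among the 902. No pairing by replicate number was seen: deviations of same-numbered control and budesonide libraries correlated at 0.0272, −0.0343 and −0.0273. Those with different numbers correlated at −0.0752 to 0.0819. These values do not show whether the samples were paired by design. A fit with the replicate block called 768 genes (295 rose, 473 fell), 753 of them among the 902, with 18 past 1.5-fold and 46 differing with proline.

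Of 170 named genes with a call, 99 kept it under all 15 alternatives and 71 lost it under at least 1, none with a change of sign. Changes of sign occurred in 4 named genes without a call. Leaving out 1 library gave log2 values from −0.14 to 0.092 for Cdh1, −0.10 to 0.10 for Esrrb, −0.36 to 0.089 for Per1 and −0.14 to 0.040 for Sox2, and without control 3 and budesonide 3 together they were 0.12 for Cdh1 and 0.18 for Esrrb. Low counts limit genes such as Sox17, with 1 count in control and 68 with budesonide (ratio 56.0, 95% interval 9.71 to 2243, counting error only).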

Other observations

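Germline and transposon-silencing genes were mostly lower with budesonide. Of 20 tested, 19 had a log2 change below 0, as did 49.0% of all tested genes. The median was −0.55, where it was 0.01 over all tested genes. In 8 all budesonide libraries lay below all control libraries, a separation that 1690 of all 13852 tested genes showed. The test called 3 lower and 1 higher (5 lower without budesonide 1, and no rise without control 1, control 3, budesonide 1 or budesonide 2). With proline the median was −0.54 and 2 fell, where 591 of all 13852 tested genes fell. Tex19.1 stood at 146, 149 and 140.5 CPM in control and at 87.3, 106 and 67.0 CPM with budesonide (−0.74 ± 0.15), and Mael at 25.4, 24.1 and 20.4 CPM and 5.53, 9.76 and 8.56 CPM. In both, each budesonide library lay below each control library. Among 16 circadian clock genes 2 rose (12.5%, where 2.51% of all tested genes rose) and none fell. One was the core activator Clock, at 18.5, 18.5 and 12.2 CPM and 51.2, 38.6 and 45.0 CPM (1.46 ± 0.26). The second, the repressor Bhlhe40, had 27 counts in control and 196 with budesonide, a ratio of 5.98 (95% interval 3.98 to 9.30, counting error only), and its call ended with limma-voom (adjusted p = 0.102) and in the fit of only the 6 libraries (0.0551).

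Of 28 ciliary genes 2 were called (7.14%, near the 6.51% of all tested genes), and both fell: Dync2i2 and the intraflagellar transport gene Ift74. Ift74 went from 69.9, 52.0 and 58.3 CPM to 28.0, 33.2 and 32.3 CPM (−0.95 ± 0.21). The tubulin gene Tuba1b was among the falls largest in CPM, at 1644, 2057 and 2234 CPM in control and 1272, 1194 and 1000.3 CPM with budesonide (−0.78 ± 0.13). None of the 14 immediate early genes of the AP-1 family and its neighbours was called.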
